A study of Xenopus laevis with 36 samples.

Results

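The TNF superfamily is a family of signalling ligands and of the receptors that bind them. Its genes were taken from the count table by name alone: *tnf*, *lta*, *ltb*, *faslg*, *cd40lg* and the names beginning *tnfsf* for ligands, and *fas*, *cd40*, *ltbr*, *edar* and the names beginning *tnfrsf* for receptors. This gave 49 rows, of which *tnfsf15.S* and *tnfrsf6b.L* held no read in any library. The remaining 47 of the 42257 named genes are described here, 19 ligands and 28 receptors, and all 47 passed the filter on low counts that left 28225 genes to test. *Xenopus laevis* carries 2 subgenomes, so a gene is often present as a long-chromosome (L) and a short-chromosome (S) copy, and 15 genes of the family were measured as such pairs. The names *FAS*, *TNFRSF11A* and *Tnfrsf4* each stood on 2 rows, numbered here in table order (*FAS-1*, *FAS-2* and so on), and *Tnfrsf26*, *Tnfsf12*, *TNFSF14* and *TNFRSF9* were listed without a copy letter. Of the 47 genes, 37 matched a RefSeq symbol.

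The libraries came from dorsal skin wounds of wild-type juvenile frogs within 30 days of metamorphosis. All animals received a full-thickness 2 mm biopsy punch, with the muscle left in place, and a subcutaneous injection of 20 µL near the wound at 3 days post wounding (dpw). The injection held 1 µg of recombinant *X. laevis* colony stimulating factor 1 (rCSF1), 1 µg of recombinant interleukin-34 (rIL34), or the recombinant control (rctrl), which is the equally processed supernatant of Sf9 insect cells carrying an empty expression vector. Both cytokines are growth factors of macrophages and bind the same receptor. Wounds were taken at 7 or 14 dpw, which gives 6 groups of 6 libraries, and unwounded skin was not analysed here. The sources do not say whether each library came from a separate frog, so the p-values measure the spread between these libraries.

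In mammals, most TNF superfamily ligands are made as membrane proteins, act as trimers and are produced largely by immune cells. Their receptors are spread over immune, epithelial and stromal cells. Receptors with a death domain can trigger cell death, the others recruit TRAF adaptor proteins, and both kinds can switch on NF-κB, a transcription factor of inflammation. Some receptors are decoys that bind a ligand without signalling. The roles given below for single genes are those of their mammalian namesakes.

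Total counts per library were 22435798 to 34868292 (median 29370148), and levels are given as CPM, each gene's counts relative to the scaled library size. Unless another fit is named, fold changes and adjusted p of genes were taken from edgeR's quasi-likelihood test of the 28225 genes, with Benjamini-Hochberg adjustment. The standard error (SE) of a gene was worked out as its absolute log2 fold change divided by the square root of that test's F statistic. A gene is said to rise or fall only at an adjusted p under 0.05. In the rCSF1 group at 7 dpw, replicates 2 and 5 stood apart. Their summed neutrophil marker levels were 10682 and 7186 CPM against 585 to 1808 CPM in the other 4 libraries, and their summed fibroblast marker levels 3496 and 4623 CPM against 12182 to 18410 CPM. In the rCSF1 group at 14 dpw, replicates 1, 2 and 6 held skeletal muscle marker transcripts at 2490 to 26092 CPM against 78.4 to 118 CPM in the other 3. The labelled tissue was skin in every library, and epidermal marker genes summed to 3802 to 16573 CPM across the 36 libraries. Sums cover only listed symbols found among the gene names. These were 5 of 9 for neutrophils, 8 of 11 for macrophages, 9 of 10 for B and plasma cells and 2 of 6 for mast cells. For red blood cells they were 7 of 11, and for epidermis 11 of 14, without *krt5*, *krt12* and *krt14*.

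The TNF and lymphotoxin ligand genes lie close together on both subgenomes, as they do in mammals. On the L subgenome (build Xenopus_laevis_v10.1), *ltb.L* occupies chr8L:66002805-66010300, *tnf.L* chr8L:66062676-66064544 and *lta.L* chr8L:66097683-66101693. Their S copies follow the same order, with *ltb.S* at chr8S:81658575-81667148, *tnf.S* at chr8S:81721966-81724837 and *lta.S* at chr8S:81758283-81763839. The receptors *ltbr.L* (chr7L:7936841-7953730) and *tnfrsf1a.L* (chr7L:7997015-8028641) also lie close together, as do *ltbr.S* (chr7S:5034922-5055800) and *tnfrsf1a.S* (chr7S:5098958-5124873).

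The first comparison follows the family over time in wounds given rctrl. At 14 dpw, 29 of the 47 genes were lower than at 7 dpw and 2 were higher, while over all tested genes 49.3% passed the test, 26.4% lower and 22.9% higher. The median log2 fold change was -1.22 over the family and -0.01 over all genes. Ligands carried most of it: 17 of the 19 fell (median -1.95), against 12 of 28 receptors that fell and 2 that rose (median -0.70). In 25 of the falls, 15 ligands and 10 receptors, the 6 libraries at 14 dpw were all below the 6 at 7 dpw, an arrangement found downward in 17.8% of all genes, and both rises were free of overlap too, as were 14.3% of all genes upward.

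**Figure D1:**
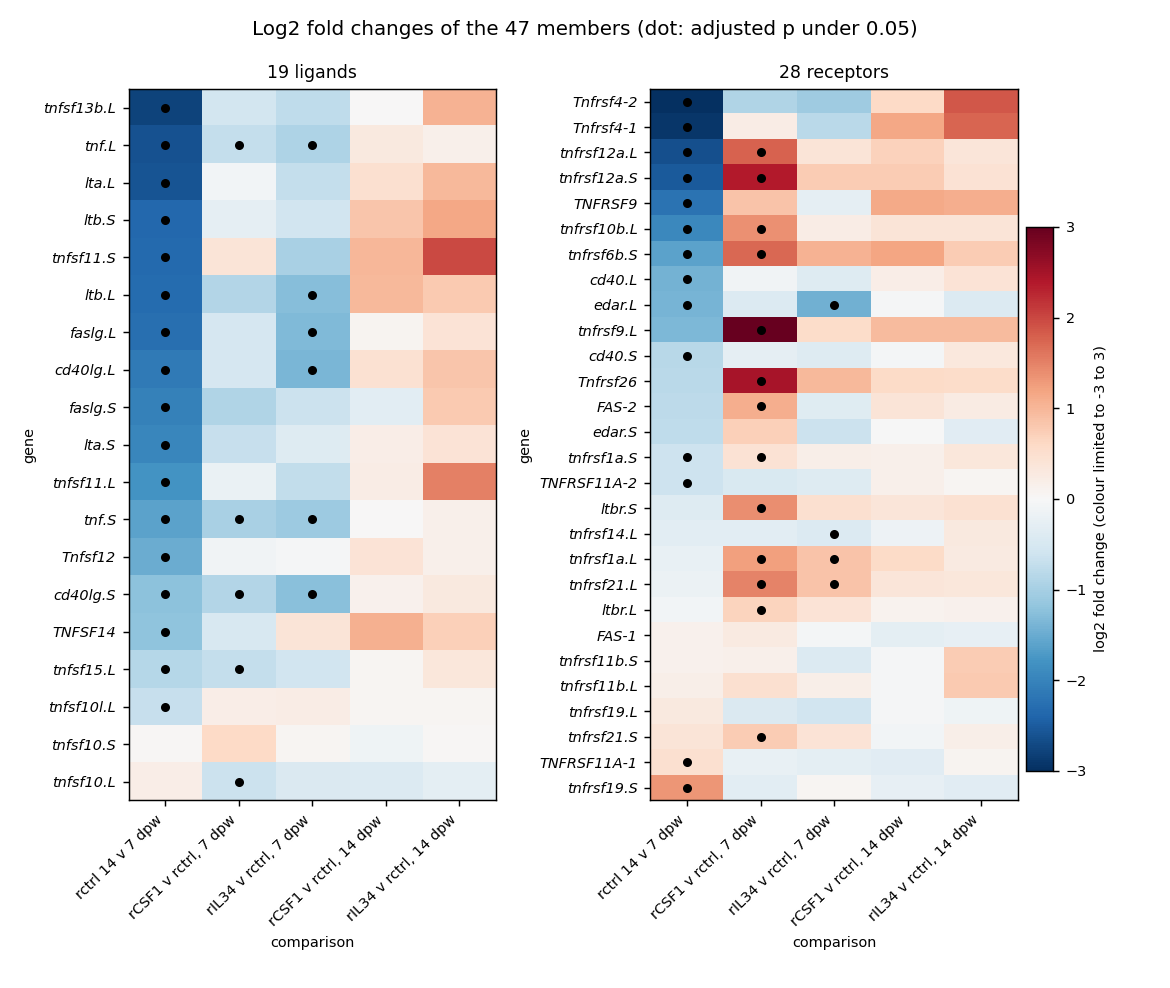
Heat map of log2 fold changes of the 19 ligands and 28 receptors (vertical axis, sorted by the change in rctrl wounds from 7 to 14 dpw) in 5 comparisons (horizontal axis), with the colour scale limited to -3 to 3 and a dot where the adjusted p was under 0.05. In rctrl wounds 17 of the 19 ligands fell with time, and at 7 dpw all 13 rises after rCSF1 were in receptors. Without replicates 2 and 5 of that rCSF1 group, 6 genes of the family rose.

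Among the ligands, the TNF gene itself fell in both copies. *tnf.L* ranged from 10.7 to 17.1 CPM (median 12.3) at 7 dpw and from 1.16 to 3.01 CPM (median 2.14) at 14 dpw, a log2 fold change of -2.61 ± 0.30 SE (adjusted p = 1.49e-08). *tnf.S* ranged from 15.1 to 28.3 CPM (median 18.7) and then from 4.78 to 9.92 CPM (median 5.49), a log2 fold change of -1.60 ± 0.23 SE (adjusted p = 8.88e-07). For both copies the lowest wound at 7 dpw was above the highest at 14 dpw. The lymphotoxins, which act with TNF in lymphoid tissue, fell as well. *lta.L* ranged from 2.17 to 6.77 CPM (median 4.56) at 7 dpw and from 0.421 to 1.22 CPM (median 0.660) at 14 dpw, a log2 fold change of -2.60 ± 0.42 SE (adjusted p = 5.70e-06). *ltb.L* ranged from 3.56 to 8.64 CPM (median 4.36) and then from 0.122 to 1.59 CPM (median 1.09), a log2 fold change of -2.30 ± 0.50 SE (adjusted p = 0.000288). Neither gene's groups overlapped. Their S copies changed by -1.95 ± 0.50 (adjusted p = 0.00159) for *lta.S* and -2.36 ± 0.37 (adjusted p = 4.06e-06) for *ltb.S*.

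Ligands known from T cells formed another group of falls. *faslg.L*, whose product triggers death of cells that carry Fas, ranged from 2.19 to 3.46 CPM (median 3.00) at 7 dpw and from 0.117 to 1.00 CPM (median 0.541) at 14 dpw, a log2 fold change of -2.26 ± 0.35 SE (adjusted p = 3.49e-06). *cd40lg.L*, by which helper T cells activate antigen-presenting cells, ranged from 3.11 to 6.84 CPM (median 5.98) and then from 0.890 to 1.68 CPM (median 1.23), a log2 fold change of -2.11 ± 0.38 SE (adjusted p = 2.33e-05). Both were lower in every wound at 14 dpw than in any at 7 dpw. The other copies changed by -2.03 ± 0.40 (adjusted p = 8.25e-05) for *faslg.S* and -1.22 ± 0.26 (adjusted p = 0.000259) for *cd40lg.S*. *tnfsf13b.L*, which encodes the B cell survival factor BAFF, ranged from 3.42 to 10.7 CPM (median 5.08) and then from 0.609 to 1.05 CPM (median 0.963), a log2 fold change of -2.77 ± 0.40 SE (adjusted p = 9.97e-07). *tnfsf11.S*, one copy of the RANK ligand gene that drives osteoclast formation, changed by -2.34 ± 0.48 (adjusted p = 0.000143) and its partner *tnfsf11.L* by -1.79 ± 0.36 (adjusted p = 0.000109). Falls in *Tnfsf12* (TWEAK), *TNFSF14* (LIGHT), *tnfsf15.L* and *tnfsf10l.L* had log2 fold changes of -1.48, -1.20, -0.85 and -0.70. The 2 ligand genes that did not pass were the copies of *tnfsf10*, the TRAIL gene, at 0.21 (adjusted p = 0.375) for L and 0.03 (adjusted p = 0.924) for S.

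**Figure D2:**
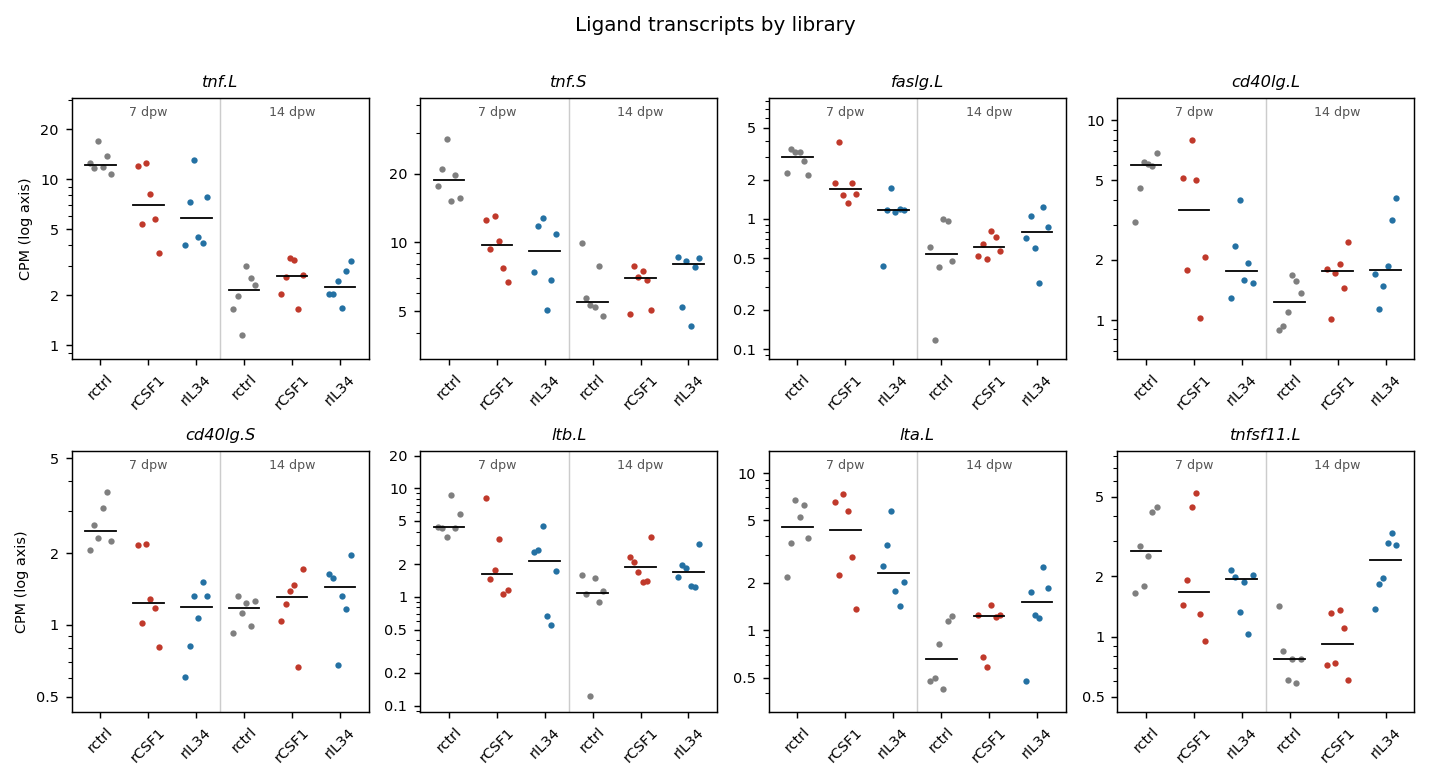
Level of 8 ligand genes in each of the 36 libraries (CPM on a log axis) by treatment and day, with 1 point per library and a line at the group median. In rctrl wounds *tnf.L* stood at 10.7 to 17.1 CPM at 7 dpw and 1.16 to 3.01 CPM at 14 dpw, and *tnf.S* was lower in all 6 rCSF1 and all 6 rIL34 wounds at 7 dpw than in any rctrl wound of that day.

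The receptors that fell in rctrl wounds were led by costimulatory receptors of T cells and by the TWEAK receptor. *Tnfrsf4-2* ranged from 1.22 to 5.12 CPM (median 3.19) at 7 dpw and from 0.213 to 0.421 CPM (median 0.298) at 14 dpw, a log2 fold change of -3.38 ± 0.59 SE (adjusted p = 1.75e-05), and *Tnfrsf4-1* changed by -2.92 ± 0.46 (adjusted p = 4.12e-06). *tnfrsf12a.L*, the TWEAK receptor, ranged from 10.3 to 23.6 CPM (median 16.8) and then from 1.78 to 3.76 CPM (median 2.48), a log2 fold change of -2.63 ± 0.37 SE (adjusted p = 5.00e-07), and *tnfrsf12a.S* changed by -2.53 ± 0.44 (adjusted p = 1.59e-05). The groups did not overlap for any of these 4 rows. *TNFRSF9*, another costimulatory receptor, changed by -2.22 ± 0.41 (adjusted p = 3.65e-05), while its namesake *tnfrsf9.L* stood at -1.34 (adjusted p = 0.0833). *tnfrsf9.L* was called lower by limma-voom (adjusted p = 0.0312) and by edgeR on the compared groups alone (adjusted p = 0.000385), but not by DESeq2. *tnfrsf10b.L*, a TRAIL death receptor that RefSeq places on chromosome 3S despite its L name, changed by -1.94 ± 0.33 (adjusted p = 1.20e-05). The copies of *cd40*, the receptor of B cells and other antigen-presenting cells, changed by -1.42 ± 0.20 (adjusted p = 6.93e-07) for L and -0.82 ± 0.16 (adjusted p = 5.99e-05) for S. *edar.L*, the receptor of the skin appendage ligand ectodysplasin, changed by -1.40 ± 0.27 (adjusted p = 5.58e-05), and *edar.S* stood at -0.77 (adjusted p = 0.0679). *edar.S* was called lower by limma-voom (adjusted p = 0.0343) and by edgeR on the compared groups alone (adjusted p = 0.0154), but not by DESeq2.

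The main TNF receptor had smaller fold changes over time than *tnf* itself. *tnfrsf1a.S* ranged from 56.7 to 78.9 CPM (median 62.2) at 7 dpw and from 28.1 to 47.4 CPM (median 44.5) at 14 dpw, a log2 fold change of -0.63 ± 0.16 SE (adjusted p = 0.00148), with no overlap. *tnfrsf1a.L* stood at -0.22 (adjusted p = 0.510) and its groups overlapped. The lymphotoxin receptor copies did not pass either, at -0.07 (adjusted p = 0.787) for *ltbr.L* and -0.38 (adjusted p = 0.229) for *ltbr.S*, nor did the Fas receptor rows, at 0.12 (adjusted p = 0.646) for *FAS-1* and -0.79 (adjusted p = 0.0528) for *FAS-2*. DESeq2 and limma-voom called *FAS-2* lower (adjusted p = 0.0478 and 0.00892). So did edgeR with a replicate block and on the compared groups alone (adjusted p = 0.0381 and 0.00306). *TNFRSF11A-2*, a row of the RANK receptor, fell by 0.63 on the log2 scale (adjusted p = 0.00645). The 2 rises were also receptors. *tnfrsf19.S*, which encodes the TROY receptor, ranged from 16.3 to 44.7 CPM (median 25.9) and then from 54.8 to 86.2 CPM (median 74.7), a log2 fold change of 1.33 ± 0.25 SE (adjusted p = 5.86e-05). *TNFRSF11A-1* ranged from 34.2 to 50.9 CPM (median 45.9) and then from 54.3 to 76.7 CPM (median 61.8), a log2 fold change of 0.48 ± 0.13 SE (adjusted p = 0.00320). In both, each wound at 14 dpw was above each at 7 dpw. The decoy receptor *tnfrsf6b.S* changed by -1.60 ± 0.67 (adjusted p = 0.0473), a call that was lost in 9 of 12 fits that left out 1 library each, with adjusted p up to 0.276.

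Leukocyte markers fell over the same interval in the same libraries. All 23 T and NK cell marker rows (15 of 19 listed symbols matched) were lower at 14 dpw, and their summed level was 125 to 305 CPM at 7 dpw and 47.5 to 72.2 CPM at 14 dpw. Of the others, 11 of 14 macrophage, all 8 neutrophil and 13 of 14 B and plasma cell marker rows were lower, with sums of 840 to 1312 against 177 to 328 CPM for macrophages, 524 to 889 against 76.0 to 171 CPM for neutrophils, and 245 to 399 against 147 to 213 CPM for B and plasma cells. Epidermal markers went the other way, with 12 of 21 rows higher and 2 lower and sums of 3802 to 8736 against 7241 to 12753 CPM. The part of these cell types in the falls of the family was not tested. In bulk wounds, fewer cells of a type and less RNA per cell cannot be told apart.

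The second comparison asks what rCSF1 changed at 7 dpw. Over all libraries, 13 of 28 receptors rose and none fell, while 5 of 19 ligands fell and none rose. In all 18 of 47 genes passed (38.3%), where 34.5% of all tested genes passed, 20.4% higher and 14.1% lower, so the count lies near that of genes at large. The median log2 fold change was 0.58 over receptors, -0.51 over ligands and -0.03 over all genes. Without rCSF1 replicates 2 and 5, 6 genes of the family rose, all receptors, and 2 fell, both ligands. In that fit 12.8% of all genes passed.

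The largest rise was in *tnfrsf9.L* (chr7L:100606235-100623827), a costimulatory receptor induced on activated T cells and myeloid cells. It ranged from 3.71 to 9.73 CPM (median 7.88) in rctrl wounds and from 8.62 to 413 CPM (median 26.1) in rCSF1-treated wounds, a log2 fold change of 4.10 ± 0.69 SE (adjusted p = 5.88e-05). In library order, the rCSF1 wounds held 8.77, 413, 8.62, 20.9, 265 and 31.4 CPM, so replicates 2 and 5 were far above the rest and 2 wounds lay within the rctrl range. *Tnfrsf26*, named for a mouse receptor, ranged from 8.83 to 23.8 CPM (median 17.4) in rctrl wounds, and the rCSF1 wounds held 14.1, 215, 35.2, 38.7, 202 and 69.4 CPM, a log2 fold change of 2.48 ± 0.41 SE (adjusted p = 4.22e-05). Replicates 2 and 5 again led, and 5 of the 6 wounds exceeded every rctrl wound. The TWEAK receptor rose in both copies. *tnfrsf12a.S* ranged from 9.02 to 17.8 CPM (median 10.1) and then from 14.7 to 125 CPM (median 40.0) after rCSF1, a log2 fold change of 2.39 ± 0.43 SE (adjusted p = 9.40e-05). *tnfrsf12a.L* ranged from 10.3 to 23.6 CPM (median 16.8) and then from 23.3 to 119 CPM (median 39.2), a log2 fold change of 1.76 ± 0.35 SE (adjusted p = 0.000269). In both copies the overlap was confined to the low end of the rCSF1 wounds and the high end of the rctrl wounds.

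**Figure D3:**
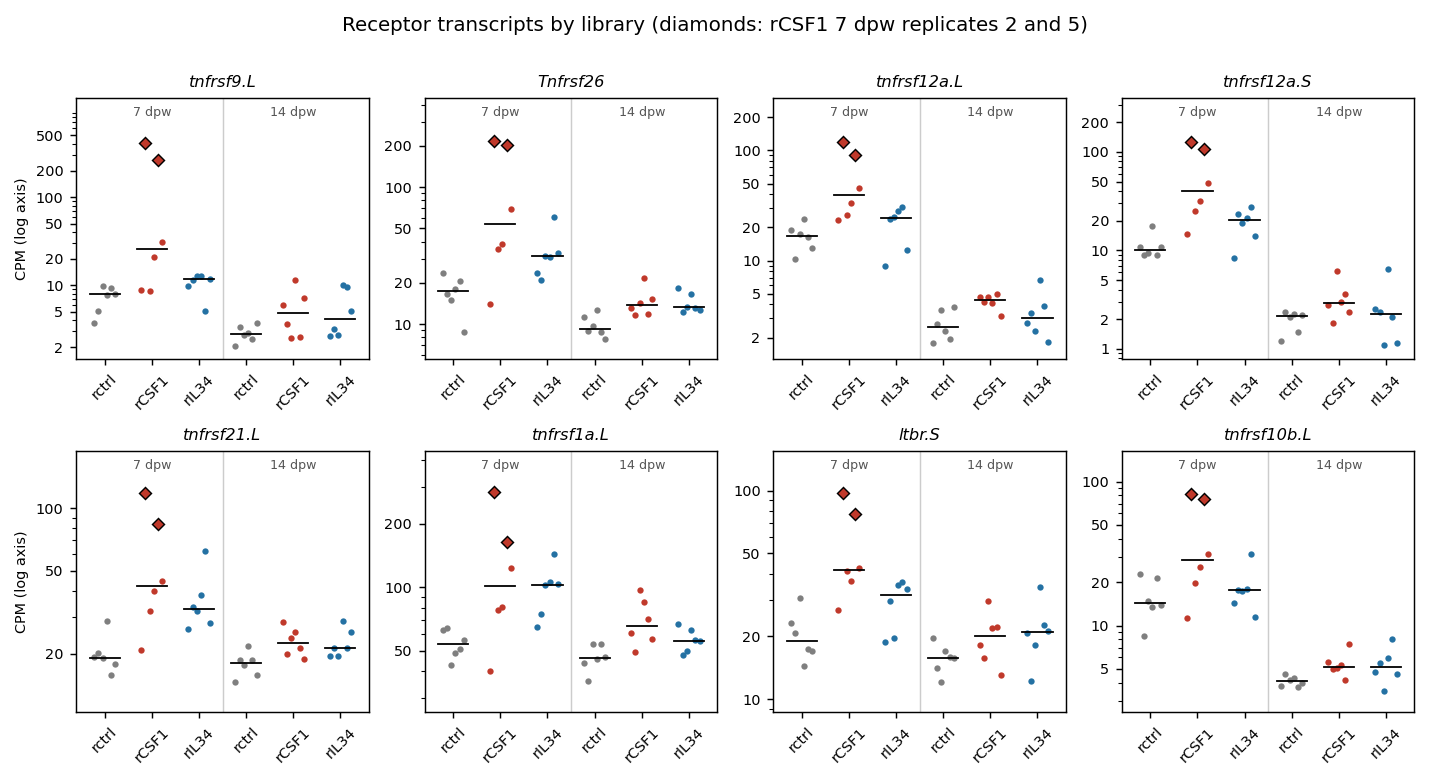
Level of 8 receptor genes in each of the 36 libraries (CPM on a log axis) by treatment and day, with 1 point per library, a line at the group median and diamonds for replicates 2 and 5 of the rCSF1 group at 7 dpw. The diamonds stand at 413 and 265 CPM for *tnfrsf9.L* and at 215 and 202 CPM for *Tnfrsf26*, above the other 4 rCSF1 wounds.

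Receptors with a death domain, or of the TNF and lymphotoxin system, rose by smaller amounts. *tnfrsf21.L*, a death-domain receptor, ranged from 15.8 to 28.8 CPM (median 19.1) in rctrl wounds and from 20.8 to 119 CPM (median 42.2) after rCSF1, a log2 fold change of 1.49 ± 0.27 SE (adjusted p = 9.57e-05), and *tnfrsf21.S* changed by 0.77 ± 0.21 (adjusted p = 0.00473). *tnfrsf10b.L* ranged from 8.51 to 22.8 CPM (median 14.4) and then from 11.3 to 81.6 CPM (median 28.5), a log2 fold change of 1.37 ± 0.32 SE (adjusted p = 0.00143). *tnfrsf1a.L* ranged from 42.8 to 64.4 CPM (median 53.8) and then from 40.3 to 282 CPM (median 102), a log2 fold change of 1.23 ± 0.27 SE (adjusted p = 0.000695). Each of these groups overlapped with rctrl at its lower end, and the highest wounds were those of replicates 2 and 5. *ltbr.S* ranged from 14.4 to 30.6 CPM (median 19.1) and then from 26.9 to 98.0 CPM (median 41.9), a log2 fold change of 1.39 ± 0.26 SE (adjusted p = 0.000178), and *ltbr.L* changed by 0.67 ± 0.20 (adjusted p = 0.0110). The remaining rises were *FAS-2* at 1.09 ± 0.34 (adjusted p = 0.0128), *tnfrsf6b.S* at 1.71 ± 0.65 (adjusted p = 0.0403) and *tnfrsf1a.S* at 0.44 ± 0.16 (adjusted p = 0.0338). Receptors that did not pass included *FAS-1* at 0.26 (adjusted p = 0.323), *cd40.L* at -0.10 (adjusted p = 0.737), *cd40.S* at -0.28 (adjusted p = 0.166), *edar.L* at -0.42 (adjusted p = 0.215) and *edar.S* at 0.71 (adjusted p = 0.114).

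Replicates 2 and 5 were the highest pair for all 13 receptors that rose, with replicate 2 highest for 11 and replicate 5 for 2. Without these 2 libraries, 12.8% of all genes passed and 8 genes of the family did. *Tnfrsf26* then stood at 1.16 (adjusted p = 0.00775), *tnfrsf12a.S* at 1.39 (adjusted p = 0.0133) and *tnfrsf9.L* at 1.23 (adjusted p = 0.0462). *tnfrsf12a.L*, *ltbr.S* and *tnfrsf21.L* also passed, at 0.91, 0.81 and 0.74, while the TNF receptor *tnfrsf1a.L* stood at 0.54 (adjusted p = 0.0942), *tnfrsf10b.L* at 0.44 (adjusted p = 0.278) and *FAS-2* at 0.12 (adjusted p = 0.837). Besides the neutrophil markers, summed levels were highest in the same 2 libraries for epidermis (16573 and 12589 against 6053 to 10306 CPM), endothelium (314 and 301 against 81.0 to 171 CPM) and B and plasma cells (830.4 and 606 against 312 to 471 CPM). Besides the fibroblast markers, they were lowest there for T and NK cells (83.1 and 67.0 against 83.8 to 239.5 CPM), macrophages (736 and 668 against 793 to 1247 CPM), mast cells (33.4 and 27.2 against 47.2 to 73.4 CPM) and red blood cells (49.9 and 65.7 against 239 to 1449.5 CPM). A sum can rest on a few abundant rows. Over all 6 rCSF1 wounds against rctrl, the median log2 fold change was -0.53 over the 14 B and plasma cell rows, 2 higher and 2 lower. It was -0.59 over the 12 endothelial rows, 1 higher and 1 lower, and 0.52 over the 8 neutrophil rows, 3 higher and 0 lower. The mast cell sum held 2 of 6 listed symbols, *kit* and *gata2*. The part of these cell types in the rises was not tested. Calls that single libraries carried were *ltbr.L*, lost without rCSF1 replicate 2 (adjusted p = 0.0670), and *FAS-2*, lost without either replicate 2 or replicate 5 (adjusted p up to 0.0856). Both *tnfrsf1a.S* and *tnfrsf6b.S* were lost in 7 of 12 such fits, rCSF1 replicates 2 and 5 and 5 rctrl libraries among them, with adjusted p up to 0.241 and 0.243.

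The ligands that fell after rCSF1 included both copies of *tnf*. *tnf.S* ranged from 15.1 to 28.3 CPM (median 18.7) in rctrl wounds and from 6.71 to 13.0 CPM (median 9.73) after rCSF1, a log2 fold change of -0.98 ± 0.23 SE (adjusted p = 0.00123). Every rCSF1 wound was below every rctrl wound, the one gene of the family of which this held, as for 2.69% of all genes downward. *tnf.L* ranged from 10.7 to 17.1 CPM (median 12.3) and then from 3.59 to 12.5 CPM (median 6.97), a log2 fold change of -0.72 ± 0.28 SE (adjusted p = 0.0464). Its groups overlapped, and its call was lost in 9 of 12 fits without 1 library each (adjusted p up to 0.115), 5 rctrl libraries and rCSF1 replicates 2, 4, 5 and 6. *cd40lg.S* ranged from 2.06 to 3.62 CPM (median 2.47) and then from 0.808 to 2.19 CPM (median 1.23), a log2 fold change of -0.89 ± 0.26 SE (adjusted p = 0.00893). *tnfsf10.L* and *tnfsf15.L*, the latter a ligand made by endothelial and myeloid cells, changed by -0.63 ± 0.19 (adjusted p = 0.0107) and -0.72 ± 0.23 (adjusted p = 0.0148). Without replicates 2 and 5, *tnf.S* stood at -0.91 (adjusted p = 0.0174) and *tnfsf10.L* at -0.87 (adjusted p = 0.00568), while *tnf.L* (-0.55, adjusted p = 0.258), *cd40lg.S* (-0.75, adjusted p = 0.0913) and *tnfsf15.L* (-0.72, adjusted p = 0.0520) did not pass. Named ligands that had not passed with all libraries were *faslg.L* at -0.51 (adjusted p = 0.242), *faslg.S* at -0.90 (adjusted p = 0.0659) and *cd40lg.L* at -0.50 (adjusted p = 0.285).

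The third comparison asks the same of rIL34 at 7 dpw. Here 8 genes of the family fell and 2 rose (21.3% of 47), where 27% of all tested genes passed, 11.2% lower and 15.8% higher. Ligands again lay low, with 6 of 19 falling, none rising and a median of -0.72, against -0.01 over all genes. Of the 28 receptors 2 rose and 2 fell (median 0.01). Without overlap between the groups were 3 falls (*tnf.S*, *faslg.L* and *cd40lg.S*), as in 3.9% of all genes, and 1 rise (*tnfrsf1a.L*), as in 6.87% of all genes.

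*tnf.S* ranged from 15.1 to 28.3 CPM (median 18.7) in rctrl wounds and from 5.05 to 12.8 CPM (median 9.12) in rIL34-treated wounds, a log2 fold change of -1.10 ± 0.23 SE (adjusted p = 0.000550). *tnf.L* ranged from 10.7 to 17.1 CPM (median 12.3) and then from 4.00 to 13.1 CPM (median 5.86), a log2 fold change of -0.93 ± 0.28 SE (adjusted p = 0.0133). After rIL34 as after rCSF1 the *tnf.S* groups did not overlap with rctrl, and the rctrl libraries are the same in both comparisons. *faslg.L* ranged from 2.19 to 3.46 CPM (median 3.00) and then from 0.438 to 1.74 CPM (median 1.18), a log2 fold change of -1.33 ± 0.34 SE (adjusted p = 0.00401). *cd40lg.S* ranged from 2.06 to 3.62 CPM (median 2.47) and then from 0.603 to 1.52 CPM (median 1.19), a log2 fold change of -1.26 ± 0.26 SE (adjusted p = 0.000631). *cd40lg.L* ranged from 3.11 to 6.84 CPM (median 5.98) and then from 1.29 to 3.98 CPM (median 1.76), a log2 fold change of -1.37 ± 0.37 SE (adjusted p = 0.00552). Of these 3 death and helper ligands, the groups overlapped in *cd40lg.L* alone. *ltb.L* ranged from 3.56 to 8.64 CPM (median 4.36) and then from 0.549 to 4.52 CPM (median 2.16), a log2 fold change of -1.29 ± 0.48 SE (adjusted p = 0.0445), and its call was lost in 7 of 12 fits without 1 library each, 3 rctrl and 4 rIL34 libraries (adjusted p up to 0.111). The other copies stood at -0.65 for *faslg.S* (adjusted p = 0.208) and -0.57 for *ltb.S* (adjusted p = 0.236).

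Of the receptors, *edar.L* showed the largest fall. It ranged from 34.4 to 86.4 CPM (median 55.0) in rctrl wounds and from 11.3 to 37.3 CPM (median 22.6) after rIL34, a log2 fold change of -1.44 ± 0.27 SE (adjusted p = 0.000181), and the groups overlapped only where the highest rIL34 wound passed the lowest rctrl wound. *edar.S* stood at -0.64 (adjusted p = 0.183). *tnfrsf14.L*, the receptor of LIGHT, changed by -0.41 ± 0.15 (adjusted p = 0.0429), a call lost in 8 of 12 fits without 1 library each, 4 of each group (adjusted p up to 0.0993). *tnfrsf1a.L* ranged from 42.8 to 64.4 CPM (median 53.8) and then from 64.9 to 144 CPM (median 103), a log2 fold change of 0.86 ± 0.27 SE (adjusted p = 0.0154). *tnfrsf21.L* ranged from 15.8 to 28.8 CPM (median 19.1) and then from 26.1 to 61.9 CPM (median 32.8), a log2 fold change of 0.86 ± 0.26 SE (adjusted p = 0.0137). Every rIL34 wound was above every rctrl wound in *tnfrsf1a.L*, but without rIL34 replicate 5 neither rise passed (adjusted p = 0.0510 and 0.0648). Not passing were *tnfrsf1a.S* at 0.17 (adjusted p = 0.461), *FAS-1* at -0.05 (adjusted p = 0.880), *FAS-2* at -0.37 (adjusted p = 0.443), *cd40.L* at -0.40 (adjusted p = 0.136), *cd40.S* at -0.39 (adjusted p = 0.0608), *ltbr.L* at 0.41 (adjusted p = 0.137) and *ltbr.S* at 0.49 (adjusted p = 0.163). DESeq2 called *cd40.S* and *TNFRSF11A-1* lower (adjusted p = 0.0273 and 0.0374), and RLE size factors *cd40.S* (adjusted p = 0.0367). limma-voom called *edar.S*, *Tnfrsf4-2* and *tnfrsf19.L* lower (adjusted p = 0.0146, 0.0488 and 0.0217). It called *ltbr.L* and *Tnfrsf26* higher (adjusted p = 0.0427 and 0.0302). The compared groups alone gave *Tnfrsf26* and *tnfrsf12a.S* higher (adjusted p = 0.0199 and 0.0482).

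Of 23 T and NK cell marker rows, 7 fell after rIL34, where 11.2% of all genes fell, and 2 after rCSF1, where 14.1% did. Their summed level was 125 to 305 CPM (median 223) in rctrl wounds, 75.3 to 175 CPM (median 137) after rIL34 and 67.0 to 240 CPM (median 129) after rCSF1. Epidermal markers rose in 17 of 21 rows after rIL34 and in 16 of 21 after rCSF1, with sums of 3802 to 8736 CPM in rctrl wounds, 8651 to 13608 CPM after rIL34 and 6053 to 16573 CPM after rCSF1. After rIL34 the median log2 fold change was 0.23 over the 14 macrophage rows, 1 higher and 0 lower. It was 0.26 over the 8 neutrophil rows, 0 higher and 0 lower. Over the 14 B and plasma cell rows it was -1.02, 1 higher and 3 lower. The part of these cell types in the falls of the ligands was not tested.

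The direct comparison of the cytokines at 7 dpw gave 11 of the 47 genes higher in rCSF1-treated than in rIL34-treated wounds and none lower, where 17.4% of all genes passed, 9.35% higher and 8.05% lower. These were 10 receptors and 1 ligand. Fitted by edgeR on the compared groups alone, 0 genes of the family and 5 of all 28225 genes passed. limma-voom called 3 of the family and 2086 of all genes. *tnfrsf9.L* ranged from 8.62 to 413 CPM (median 26.1) after rCSF1 and from 5.16 to 12.8 CPM (median 11.7) after rIL34, a log2 fold change of 3.55 ± 0.68 SE (adjusted p = 0.000957). *tnfrsf12a.S*, *tnfrsf12a.L* and *Tnfrsf26* differed by 1.62, 1.38 and 1.52, and the groups overlapped in each. Both copies of *edar* were higher after rCSF1. *edar.L* ranged from 26.7 to 61.4 CPM (median 45.5) after rCSF1 and from 11.3 to 37.3 CPM (median 22.6) after rIL34, a log2 fold change of 1.02 ± 0.26 SE (adjusted p = 0.00864). *edar.S* ranged from 12.2 to 38.8 CPM (median 29.9) and from 5.66 to 27.6 CPM (median 8.07), a log2 fold change of 1.35 ± 0.36 SE (adjusted p = 0.00944). The others were *FAS-2* at 1.46 (adjusted p = 0.00435), *tnfrsf10b.L* at 1.16 (adjusted p = 0.0127), *TNFRSF9* at 1.14 (adjusted p = 0.0402), *ltbr.S* at 0.90 (adjusted p = 0.0168) and the ligand *tnfsf11.S* at 1.36 (adjusted p = 0.0371). The ligand *tnf* did not pass, at 0.22 ± 0.28 (adjusted p = 0.637) for *tnf.L* and 0.12 ± 0.23 (adjusted p = 0.757) for *tnf.S*. Without rCSF1 replicates 2 and 5, 6.21% of all genes passed and 2 of the family did, *edar.L* at 1.09 (adjusted p = 0.0195) and *cd40lg.L* at 1.28 (adjusted p = 0.0214), whereas *tnfrsf9.L* stood at 0.73 (adjusted p = 0.306) and *edar.S* at 1.06 (adjusted p = 0.0930). Leaving out replicate 2 alone ended the call of *Tnfrsf26* (adjusted p = 0.0515), and leaving out replicate 2 or 5 those of *tnfrsf10b.L*, *ltbr.S*, *TNFRSF9* and *tnfsf11.S* (adjusted p up to 0.0715, 0.0867, 0.273 and 0.130). *TNFRSF9* was also lost without any 1 of 5 rIL34 libraries, and *tnfsf11.S* without rCSF1 replicate 4 or any 1 of 5 rIL34 libraries.

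At 14 dpw no gene of the family passed the edgeR test in any comparison. For rCSF1 against rctrl, 0.953% of all genes passed, and at an unadjusted p under 0.05 there were 9 of the 47 against 11% of all genes, 7 higher and 2 lower. The smallest of these belonged to *TNFRSF9*, which ranged from 0.615 to 1.61 CPM (median 1.10) in rctrl wounds and from 1.01 to 4.24 CPM (median 2.33) after rCSF1, a log2 fold change of 1.15 ± 0.40 SE (adjusted p = 0.225). Its groups overlapped, with the median rCSF1 wound above every rctrl wound. DESeq2 and limma-voom also called none of the family here, where they called 541 and 91 of all 28225 genes. Of 16 skeletal muscle marker rows, 15 were higher after rCSF1. Without rCSF1 replicates 1, 2 and 6, which held the most muscle marker transcripts, 4 of all genes passed, against 269 with all libraries.

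For rIL34 against rctrl at 14 dpw, 0.0496% of all genes passed. At an unadjusted p under 0.05 there were 13 of the 47 against 7.98% of all genes, and all 13 were higher, as were 4.9% of all genes. DESeq2 called 3 genes of the family (*tnfsf11.L*, *tnfsf11.S* and *Tnfrsf4-1*, adjusted p = 0.0135, 0.0102 and 0.0217) and limma-voom 1 (*tnfsf11.L*, adjusted p = 0.0420). Of all 28225 genes DESeq2 called 184 in this comparison and limma-voom 131. The lowest p-values belonged to the RANK ligand and to the costimulatory receptor rows. *tnfsf11.L* ranged from 0.587 to 1.43 CPM (median 0.777) in rctrl wounds and from 1.37 to 3.29 CPM (median 2.41) in rIL34-treated wounds, a log2 fold change of 1.50 ± 0.36 SE (adjusted p = 0.114). Only the highest rctrl wound and the lowest rIL34 wound crossed. *tnfsf11.S* ranged from 0.194 to 0.772 CPM (median 0.606) and then from 0.682 to 5.11 CPM (median 1.73), a log2 fold change of 1.99 ± 0.48 SE (adjusted p = 0.114). *Tnfrsf4-1* ranged from 0.585 to 1.68 CPM (median 0.748) and then from 0.746 to 5.18 CPM (median 3.01), a log2 fold change of 1.74 ± 0.45 SE (adjusted p = 0.128). The groups of all of these overlapped. *Tnfrsf4-2* stood at 1.87 ± 0.58 (adjusted p = 0.237), *tnfsf13b.L* at 1.05 (adjusted p = 0.387), *lta.L* at 0.97 (adjusted p = 0.531) and *cd40lg.L* at 0.83 (adjusted p = 0.567). *tnf.L* and *tnf.S* stood at 0.16 and 0.14, with adjusted p of 0.981 and 0.975.

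For rCSF1 against rIL34 at 14 dpw, 1.24% of all genes passed and none of the family. At an unadjusted p under 0.05 there were 9 of the 47 against 13.4% of all genes, all lower after rCSF1, as were 5.67% of all genes. *tnfsf11.L* ranged from 0.605 to 1.36 CPM (median 0.918) after rCSF1 and from 1.37 to 3.29 CPM (median 2.41) after rIL34, a log2 fold change of -1.28 ± 0.35 SE (adjusted p = 0.0637). Each rCSF1 wound lay below each rIL34 wound, as in 0.95% of all genes downward. Both DESeq2 and limma-voom called *tnfsf11.L*, with adjusted p of 0.0193 and 0.0456, and of all 28225 genes they called 768 and 797. The other 8 included *TNFRSF11A-1* at -0.42 (adjusted p = 0.114) and *tnfsf13b.L* at -1.04 (adjusted p = 0.207). Of 16 skeletal muscle marker rows, 13 were higher after rCSF1 than after rIL34. Without rCSF1 replicates 1, 2 and 6, which held the most muscle marker transcripts, 0 of all genes passed, against 349 with all libraries.

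Whether a cytokine's effect differed between the days was tested directly, as its log2 fold change at 14 dpw less that at 7 dpw. For rIL34 this difference was above 0 in 16 of the 47 genes and below 0 in none, where 18.4% of all genes passed, 7.55% above and 10.9% below 0. The median difference was 0.60 over the family, 1.44 over the ligands, 0.34 over the receptors and 0.04 over all genes. Of the 16 there were 11 ligands and 5 receptors. Picking genes by a difference above 0 favours low values at 7 dpw and high values at 14 dpw. All 16 stood below 0 at 7 dpw and above 0 at 14 dpw, 6 of them passing at 7 dpw and none at 14 dpw. In part of them, rIL34 replicates 4 to 6 of 14 dpw stood above replicates 1 to 3. *tnfsf11.S* held 2.59 to 5.11 against 0.682 to 0.879 CPM, *Tnfrsf4-2* 0.867 to 3.22 against 0.237 to 0.716 CPM, and *Tnfrsf4-1* 3.77 to 5.18 against 0.746 to 2.25 CPM. *tnfsf11.L* held 2.87 to 3.29 against 1.37 to 1.96 CPM, and *cd40lg.L* 1.86 to 4.07 against 1.14 to 1.70 CPM. These were the genes with the largest differences. *tnfsf13b.L* held 1.90 to 3.83 against 0.801 to 1.25 CPM, and *cd40.L* 21.1 to 30.7 against 14.6 to 17.0 CPM. Not all of the 16 split so: *tnf.S* was lowest in replicate 4, at 4.30 CPM. No fit left out replicates 4 to 6 together, and fits without 1 library each cannot show what these replicates carry together. The same rctrl wounds enter the difference, so the fall of these genes in rctrl wounds between the days is part of it.

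**Figure D4:**
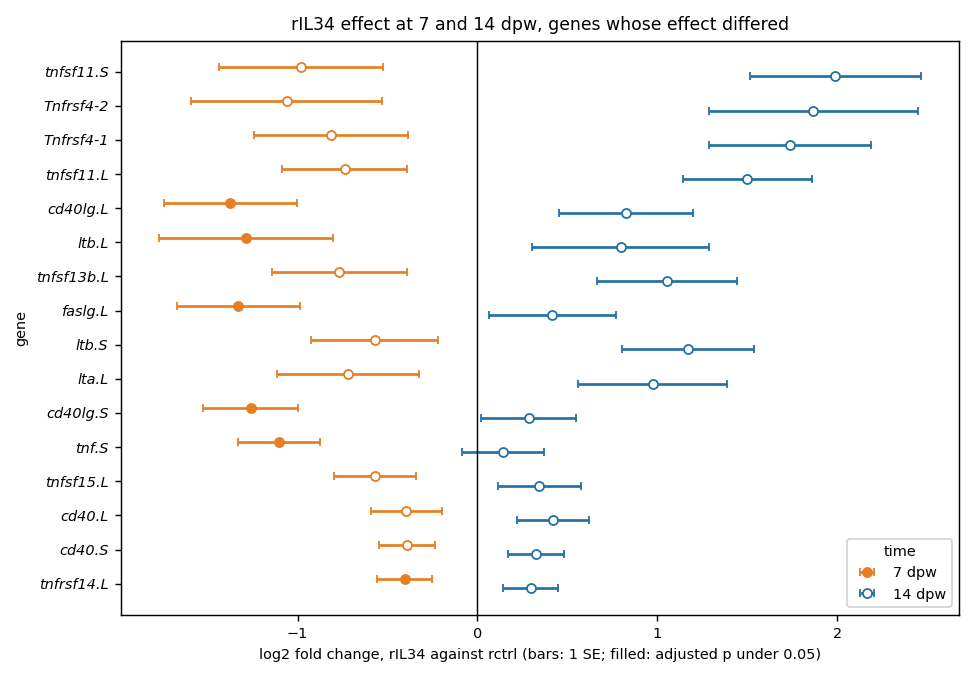
Log2 fold change of rIL34 against rctrl, with 1 SE on each side, at 7 dpw (orange) and 14 dpw (blue) for the 16 genes whose effect differed between the days, with filled points where the adjusted p of that day was under 0.05. Every gene lies below 0 at 7 dpw and above 0 at 14 dpw, a pattern that picking genes by this difference favours.

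The RANK ligand and the costimulatory receptor rows differed most. *tnfsf11.S* stood at -0.98 at 7 dpw and 1.99 at 14 dpw, a difference of 2.97 ± 0.66 (adjusted p = 0.00196). *tnfsf11.L* stood at -0.74 and 1.50, a difference of 2.24 ± 0.50 (adjusted p = 0.00203). Across the 4 groups *tnfsf11.L* ranged from 1.64 to 4.45 CPM (median 2.68) in rctrl wounds and from 1.03 to 2.16 CPM (median 1.94) in rIL34 wounds at 7 dpw, and from 0.587 to 1.43 CPM (median 0.777) and from 1.37 to 3.29 CPM (median 2.41) at 14 dpw. Its rctrl wounds did not overlap between the days, while its rIL34 wounds did. *Tnfrsf4-2* and *Tnfrsf4-1* differed by 2.93 ± 0.79 (adjusted p = 0.00866) and 2.55 ± 0.62 (adjusted p = 0.00422).

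Ligands of the TNF and T cell groups followed with differences between 1 and 3. *cd40lg.L* moved from -1.37 at 7 dpw to 0.83 at 14 dpw, a difference of 2.20 ± 0.52 (adjusted p = 0.00344), and *cd40lg.S* differed by 1.55 ± 0.37 (adjusted p = 0.00384). *faslg.L* moved from -1.33 to 0.41, a difference of 1.74 ± 0.49 (adjusted p = 0.0120). *tnf.S* moved from -1.10 to 0.14, a difference of 1.24 ± 0.32 (adjusted p = 0.00656). In these 3 genes the value at 7 dpw made up the larger part of the difference. *tnf.L* differed by 1.09 ± 0.40 (adjusted p = 0.0550) and did not pass. DESeq2, RLE size factors, limma-voom and the compared groups alone called it (adjusted p = 0.0310, 0.0456, 0.0127 and 0.0305), while the replicate block and no filter did not. *edar.L* did not pass either, though DESeq2, RLE size factors and limma-voom called it above 0 (adjusted p = 0.0306, 0.0447 and 0.0121). *ltb.L*, *ltb.S* and *lta.L* differed by 2.08 ± 0.69 (adjusted p = 0.0315), 1.74 ± 0.51 (adjusted p = 0.0155) and 1.69 ± 0.57 (adjusted p = 0.0350), and *tnfsf13b.L* by 1.82 ± 0.54 (adjusted p = 0.0172). The smallest were *cd40.L*, *cd40.S*, *tnfrsf14.L* and *tnfsf15.L*, at 0.82, 0.72, 0.70 and 0.91. Over 24 fits that each left out 1 library, the calls of *tnfsf15.L*, *lta.L*, *cd40.L* and *ltb.L* were lost in 16, 11, 10 and 3 (adjusted p up to 0.0906, 0.0739, 0.0858 and 0.0626), the last without rctrl replicate 4 or rIL34 replicate 4 of 7 dpw or rIL34 replicate 6 of 14 dpw, and those of the other 12 in none.

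In the same contrast, 15 of 23 T and NK cell marker rows and 9 of 14 B and plasma cell marker rows passed, all above 0. The summed T and NK cell level at 14 dpw was 47.5 to 72.2 CPM in rctrl wounds and 69.3 to 161 CPM after rIL34, and the B and plasma cell level 147 to 213 CPM and 161 to 280 CPM. After rIL34 the T and NK cell sum was 69.3 to 89.1 CPM in replicates 1 to 3 and 114 to 161 CPM in 4 to 6. The B and plasma cell sum was 161 to 186 CPM and 242 to 280 CPM in the same replicates. Of the epidermal marker rows 12 of 21 passed, all below 0, with sums of 7241 to 12753 CPM in rctrl wounds and 6757 to 9611 CPM after rIL34 at 14 dpw. The part of these cell types in the differences of the family was not tested.

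For rCSF1 the effect differed between the days in 5 of the 47 genes, 1 above and 4 below 0, where 16.1% of all genes passed, 5.51% above and 10.5% below 0. The 4 were receptors that had risen at 7 dpw: *tnfrsf9.L* at -3.15 ± 0.90 (adjusted p = 0.0190), *Tnfrsf26* at -1.91 ± 0.55 (adjusted p = 0.0197), *tnfrsf21.L* at -1.13 ± 0.37 (adjusted p = 0.0361) and *tnfrsf21.S* at -0.85 ± 0.29 (adjusted p = 0.0442). The ligand *tnf.S* differed by 1.00 ± 0.32 (adjusted p = 0.0327), from -0.98 at 7 dpw to 0.02 at 14 dpw. None of the 5 passed without rCSF1 replicates 2 and 5 of 7 dpw, where *tnfrsf9.L* stood at -0.26 (adjusted p = 0.841), *Tnfrsf26* at -0.58 (adjusted p = 0.434) and *tnf.S* at 0.95 (adjusted p = 0.120), nor without replicates 1, 2 and 6 of 14 dpw. In the same contrast 16 of 21 epidermal marker rows passed below 0, and 10 of 23 T and NK cell and 15 of 16 skeletal muscle marker rows above 0, and their part in it was not tested. Leaving out 1 library at a time ended the call of *tnfrsf9.L* in 1 fit (rCSF1 replicate 2 of 7 dpw, adjusted p = 0.0877), of *Tnfrsf26* in 2 fits, without replicate 2 or without 5 of that group (adjusted p up to 0.0757), and of *tnf.S*, *tnfrsf21.L* and *tnfrsf21.S* in 6, 10 and 17 of 24 fits (adjusted p up to 0.0672, 0.147 and 0.136).

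Whether both copies of a gene changed alike was tested through the log2 ratio of the copies in each library, over 6633 pairs of which 15 belong to the family. After rCSF1 at 7 dpw the ratio changed in 4 of the 15 pairs, where 19.3% of all pairs passed, and after rIL34 in 2, where 9.6% passed. At 14 dpw it changed in none after rCSF1 or rIL34, where 0.0603% and 0% of all pairs passed. Near-identical copies can share reads, so part of a change in one copy can be counted in the other.

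The ratio of *edar.L* to *edar.S* ranged from 1.22 to 2.43 (median 1.82) on the log2 scale in rctrl wounds and from -0.50 to 1.31 (median 0.96) after rCSF1, a change of -1.14 ± 0.25 (adjusted p = 0.00294), with *edar.L* at -0.42 and *edar.S* at 0.71. That of *tnfsf10.L* to *tnfsf10.S* ranged from -1.88 to -0.60 (median -1.17) and then from -3.26 to -1.67 (median -2.23), a change of -1.18 ± 0.26 (adjusted p = 0.00269), with the copies at -0.63 and 0.59. In both genes the copies stood on opposite sides of 0, and the L copy lost ground to the S copy. The ratio of *ltbr* changed by -0.64 ± 0.19 (adjusted p = 0.0180) and that of *tnfrsf21* by 0.64 ± 0.17 (adjusted p = 0.0115), in genes whose copies both rose. Without rCSF1 replicates 2 and 5 none of the 15 ratios passed, and the share of all pairs that passed then was not counted. *ltbr* was lost without either replicate (adjusted p up to 0.0646) and *tnfrsf21* without replicate 2 (adjusted p = 0.0537). After rIL34 the ratio of *tnfrsf1a.L* to *tnfrsf1a.S* ranged from -0.88 to 0.08 (median -0.14) in rctrl wounds and from 0.20 to 0.71 (median 0.42), a change of 0.67 ± 0.21 (adjusted p = 0.0430) with no overlap, lost in 8 of 12 fits without 1 library each, 3 rctrl and 5 rIL34 (adjusted p up to 0.118). The ratio of *tnfrsf19* changed by -0.66 ± 0.14 (adjusted p = 0.00288), with the L copy at -0.57 and the S copy at 0.06.

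**Figure D5:**
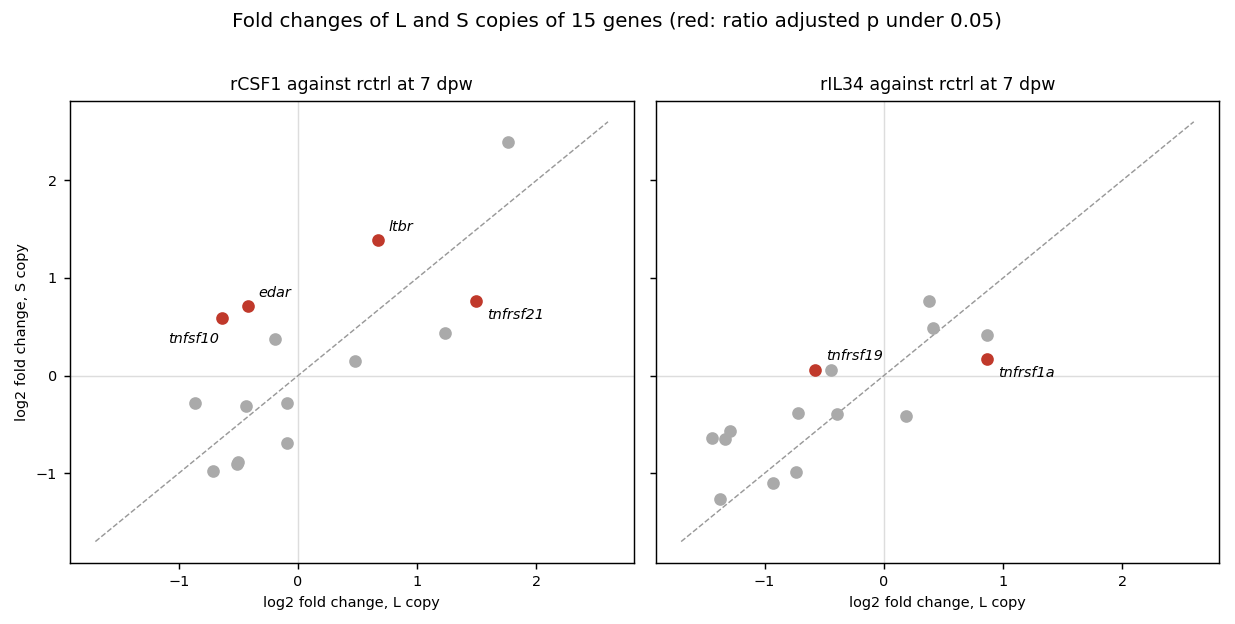
Log2 fold change of the S copy (vertical axis) against that of the L copy (horizontal axis) of 15 genes at 7 dpw, for rCSF1 and rIL34 against rctrl, with red points where the L to S ratio passed the test. After rCSF1 *edar* and *tnfsf10* lie on opposite sides of 0 for their copies, and after rIL34 *tnfrsf1a* stands at 0.86 for L and 0.17 for S.

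Genes that act downstream of TNF receptors were followed in a list of 83 rows, 82 of them tested, of TRAF and death-domain adaptors, NF-κB and its inhibitors, and caspases. After rCSF1 at 7 dpw 40 rose and 4 fell (53.7% against the 34.5% of all genes, median 0.43). Without rCSF1 replicates 2 and 5, 12 rose and 5 fell (20.7% against 12.8% of all genes, median 0.02), 15 of these 17 being calls that all libraries together also gave. The largest rises over all libraries were in A20-binding inhibitors of NF-κB signalling, with *tnip3.L* at 5.13 ± 0.81 (adjusted p = 2.81e-05) and *tnip1.L* at 2.74 ± 0.47 (adjusted p = 6.86e-05), and in the adaptor *traf4.S* at 2.22 ± 0.39 (adjusted p = 8.30e-05). *nfkbia.L* and *tnfaip3.S*, inhibitors that NF-κB itself induces, stood at 1.27 and 0.80 (adjusted p = 0.00218 and 0.0228). Without the same 2 libraries *tnip3.L* stood at 1.66 (adjusted p = 0.0126), *tnip1.L* at 0.66 (adjusted p = 0.0334), *traf4.S* at 0.53 (adjusted p = 0.0237), *nfkbia.L* at 0.14 (adjusted p = 0.678) and *tnfaip3.S* at 0.10 (adjusted p = 0.830). The 4 falls over all libraries were *tnfaip6.L*, *casp10.S*, *edaradd.L* and *cflar.L*, at -1.13, -1.06, -0.72 and -0.52, and without rCSF1 replicates 2 and 5 *edaradd.L* stood at -0.36 (adjusted p = 0.192). After rIL34, 8 rose and 11 fell (23.2% against 27%, median -0.03). Among the falls were *cflar.L*, an inhibitor of death receptor signalling, at -1.02 ± 0.17 (adjusted p = 4.84e-05), the caspase *casp10.L* at -0.98 ± 0.16 (adjusted p = 5.52e-05) and the adaptor *traf3.L* at -0.81 ± 0.23 (adjusted p = 0.00835). Among the rises were *nfkbie.L* at 0.94 ± 0.16 (adjusted p = 5.38e-05) and *traf6.L* at 0.87 ± 0.19 (adjusted p = 0.000737).

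In the direct comparison of the cytokines at 7 dpw, 32 of the 82 were higher after rCSF1 and 1 lower (40.2% against 17.4% of all genes), or 7 and 0 without rCSF1 replicates 2 and 5 (8.54% against 6.21%). Fitted on the compared groups alone, 5 of all 28225 genes passed in this comparison. In the 3 comparisons at 14 dpw none of the list passed. In rctrl wounds 31 fell and 10 rose from 7 to 14 dpw (50% against 49.3%), with *tnfaip6.S*, a hyaluronan-binding protein induced by TNF, at -2.86 ± 0.51 (adjusted p = 2.26e-05) and *traf4.L* at 1.32 ± 0.16 (adjusted p = 2.47e-08). The effect of rCSF1 was lower at 14 than at 7 dpw in 18 and higher in none, or 22% against 16.1% of all genes, and none passed without those replicates of 7 dpw or without replicates 1, 2 and 6 of 14 dpw. The effect of rIL34 differed in 23.2% of the list against 18.4% of all genes. It was higher in 13, *traf3.S* and *cflar.L* among them at 1.47 ± 0.35 (adjusted p = 0.00381) and 1.22 ± 0.24 (adjusted p = 0.000639), and lower in 6. Family genes under other names were 6 rows: *EDA*, *eda2r.L* and both copies of *ngfr* and *relt*. *relt.L*, a receptor of blood cells, stood at 2.82 ± 0.48 (adjusted p = 6.52e-05) after rCSF1 and 1.38 ± 0.46 (adjusted p = 0.0248) after rIL34 at 7 dpw, and at 1.52 (adjusted p = 0.00960) after rCSF1 without replicates 2 and 5. *ngfr.L* and *ngfr.S*, the neurotrophin receptor copies, stood at -1.80 and -1.43 after rCSF1 (adjusted p = 0.00148 and 0.000608). *EDA*, which encodes the ligand of Edar, stood at -0.65 ± 0.20 (adjusted p = 0.0104) after rCSF1, or -0.36 (adjusted p = 0.0929) without replicates 2 and 5, and -0.59 ± 0.20 (adjusted p = 0.0235) after rIL34.

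Of the family, 5 genes passed the edgeR test in none of the 9 comparisons. The share of all genes of which this held was not counted. These 5 were *tnfsf10.S*, *tnfrsf19.L*, *FAS-1* and both copies of *tnfrsf11b*, which encodes the RANK ligand decoy osteoprotegerin. *FAS-1* had group medians between 33.9 and 41.3 CPM and *tnfsf10.S* between 25.1 and 35.3 CPM over the 6 groups. *tnfrsf19.L* had group medians between 64.9 and 125 CPM, and single wounds from 26.0 to 158 CPM. limma-voom called *tnfrsf19.L* for rIL34 against rctrl at 7 dpw, at -0.64 (adjusted p = 0.0217).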

How the data were processed

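RNA of 36 skin wounds was sequenced by the authors as rRNA-depleted libraries with paired 150-base reads. The count values are raw read pairs per gene as deposited: the authors trimmed reads with fastp 1.0.1, aligned them to RefSeq Xenopus_laevis_v10.1 (minimap2 2.29), sorted the alignments (SAMtools 1.16.1) and counted read pairs over exons (featureCounts 2.1.1). No strand option is stated, so reads of overlapping antisense genes cannot be told apart. Of 42675 rows, 1 without a name and 417 named uc, NA or na (1.08% of counts) were left out, and rows that share a symbol were kept apart. Genes with at least 0.5 CPM in at least 10 libraries were tested (28225), the filter of the study.

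Counts were scaled by TMM and fitted over all 6 groups with edgeR 4.0.16 in R 4.3.3 (quasi-likelihood test, 0.05 after Benjamini-Hochberg adjustment over all genes), where the study used DESeq2. L to S ratios were tested with limma 3.58.1 on log2 CPM. Alternatives were DESeq2 1.42.0, limma-voom with sample weights, RLE size factors, no filter, the compared groups alone, a replicate block, L and S counts summed, and fits without single libraries or those that stood apart. The code was tested on simulated data. Named throughout were both copies of *tnf*, *tnfrsf1a*, *tnfrsf1b*, *fas*, *faslg*, *cd40*, *cd40lg*, *ltbr* and *edar*, and genes past the test with a mean of at least 1 CPM, at most 10 per direction by fold change (6 for the signalling list), each with its other copy. No row was named *tnfrsf1b*. The genes, lists and rules were chosen with earlier results of these data known.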

Additional observations from a re-analysis of the deposited data

Results flagged for a closer look

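In 282 sets of 6 libraries (47 genes in 6 groups), 16 held 1 library whose level on the log2(CPM + 0.5) scale stood far from the other 5. Chance gives such a library in about 1 of 20 sets. Among ligands at 7 dpw, *faslg.L* stood at 3.92 CPM in rCSF1 replicate 2, where the next library held 1.88 CPM, and at 0.438 CPM in rIL34 replicate 1 (next 1.12). *ltb.S* stood at 6.58 CPM in rctrl replicate 4 (next 3.16) and at 5.51 CPM in rIL34 replicate 3 (next 2.11). At 14 dpw, *ltb.L* stood at 0.122 CPM in rctrl replicate 3 (next 0.896), *lta.S* at 0.896 CPM in rctrl replicate 6 (next 0.389) and *tnfsf10l.L* at 13.2 CPM in rIL34 replicate 6 (next 23.5). Among receptors at 7 dpw in rctrl wounds, *FAS-1* stood at 51.2 CPM in replicate 2 (next 38.5), *tnfrsf14.L* at 48.1 CPM in replicate 1 (next 58.3) and *tnfrsf12a.S* at 17.8 CPM in replicate 4 (next 10.8). In treated wounds of that day, *Tnfrsf4-1* stood at 3.06 CPM in rCSF1 replicate 6 (next 7.36), *ltbr.L* at 48.3 CPM in rIL34 replicate 6 (next 30.8) and *tnfrsf9.L* at 5.16 CPM in rIL34 replicate 5 (next 9.81). At 14 dpw, *edar.L* stood at 16.2 CPM in rCSF1 replicate 6 (next 22.6), *tnfrsf1a.S* at 74.7 CPM in rIL34 replicate 1 (next 51.1) and *cd40.L* at 11.6 CPM in rctrl replicate 4 (next 15.2).

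The effect of a cytokine differed between 14 and 7 dpw by the test of the difference itself in 21 cases. For rCSF1 the differences were -3.15 for *tnfrsf9.L*, -1.91 for *Tnfrsf26*, -1.13 for *tnfrsf21.L*, -0.85 for *tnfrsf21.S* and 1.00 for *tnf.S*. For rIL34 they were, among ligands, 2.97 for *tnfsf11.S*, 2.24 for *tnfsf11.L*, 2.20 for *cd40lg.L*, 1.55 for *cd40lg.S*, 2.08 for *ltb.L*, 1.74 for *ltb.S*, 1.69 for *lta.L*, 1.82 for *tnfsf13b.L*, 1.74 for *faslg.L*, 1.24 for *tnf.S* and 0.91 for *tnfsf15.L*. Among receptors they were 2.93 for *Tnfrsf4-2*, 2.55 for *Tnfrsf4-1*, 0.82 for *cd40.L*, 0.72 for *cd40.S* and 0.70 for *tnfrsf14.L*.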

How the results depend on the processing

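Counts of genes of the family that passed moved as follows. rCSF1 against rctrl at 7 dpw gave 18 (9748 of all 28225 genes). It gave 8 without rCSF1 replicates 2 and 5 (3626 of all genes) and 10 with the compared groups alone (5096 of all genes). rIL34 against rctrl at 7 dpw gave 10 (7630 of all genes), and 16 with limma-voom (9078 of all genes). rCSF1 against rIL34 at 7 dpw gave 11 (4910 of all genes), but 3 with limma-voom (2086 of all genes). It gave 2 without rCSF1 replicates 2 and 5 (1754 of all genes) and 0 with the compared groups alone (5 of all genes). At 14 dpw all 3 counts were 0. For rIL34 against rctrl, DESeq2 gave 3 (184 of all genes) and limma-voom 1 (131 of all genes). For rCSF1 against rIL34, either gave 1 (768 and 797 of all genes). The change of the rCSF1 effect between the days gave 5 (4531 of all genes), against 10 with DESeq2 (5599 of all genes). It gave 3 without the filter on low counts (3627 of 38694 genes), 2 with limma-voom (2421 of all genes) and 1 with the compared groups alone (2788 of all genes). It gave 0 without either rCSF1 replicates 2 and 5 of 7 dpw (571 of all genes) or 1, 2 and 6 of 14 dpw (69 of all genes). In fits added after seeing the data, the same omissions took the TNF signalling list from 44 to 17 for rCSF1 against rctrl and from 33 to 7 for rCSF1 against rIL34 at 7 dpw, from 18 to 0 for the change of the rCSF1 effect under either omission, and left it at 0 at 14 dpw. The L to S ratios after rCSF1 at 7 dpw gave 4, and 0 without replicates 2 and 5, where all pairs were not counted. Summing L and S counts turned *tnfsf10*, where *tnfsf10.L* had fallen after rCSF1, to 0.34 (adjusted p = 0.236), as the more abundant S copy stood at 0.59. The count in rctrl wounds over time (31) and that of the rIL34 effect between the days (16) moved by less than 1.5 times in every alternative run.

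Leaving out 1 library at a time gave, at 7 dpw against rctrl, 13 to 22 genes for rCSF1 (6986 to 11732 of all genes) and 7 to 14 for rIL34 (6437 to 7658). For rCSF1 against rIL34 at 7 dpw it gave 6 to 12 (2819 to 6615). At 14 dpw it gave 0 to 0 for rCSF1 against rctrl (83 to 362), rIL34 against rctrl (0 to 42) and rCSF1 against rIL34 (44 to 480). In rctrl wounds over time it gave 30 to 31 (12858 to 13502 of all genes). For the changes of the rCSF1 and rIL34 effects it gave 1 to 14 (2067 to 7236) and 12 to 18 (4386 to 5452). For the ratios it gave 2 to 6 and 1 to 2 at 7 dpw and 0 to 0 at 14 dpw, with all pairs not counted in these fits. Same-numbered libraries of different groups did not deviate together (correlations of -0.21 to 0.34, at most 3 of 6 pairs over 0.1), so a number is not taken as a pairing. The replicate numbers follow the text order of the library names, and the numbers within those names were not examined for pairing. With the replicate block the rCSF1 effect between the days gave 3 (3992 of all genes). The other counts stayed within 1.5 times, while 7 of 97 single calls were lost. Of 91 single calls, DESeq2 lost 0, RLE size factors 1, no filter 9, limma-voom 17 and the compared groups alone 23. Alternatives also called genes that the reported fit did not, *FAS-2*, *edar.S* and *tnfrsf9.L* in rctrl wounds over time among them. In that comparison limma-voom called 16107 and the compared groups alone 15457 of all genes, against 13906 in the reported fit. Levels of a few CPM or less, such as *faslg*, *lta.S* and *Tnfrsf4-2* at 14 dpw, rest on few reads and limit what could be detected there.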
